A study of Homo sapiens with 10 samples.

Results

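The 41 genes described here encode proteins that load, start and run the copying of DNA and that supply its precursors in S phase: ORC1, ORC6, CDC6, CDT1 and MCM2 to MCM7 (licensing), MCM10, CDC45 and GINS1 to GINS4 (helicase activation), PCNA and RFC2 to RFC5 (the sliding clamp and its loader), POLA1, POLA2, POLD1, POLD3, POLE, POLE2, PRIM1 and PRIM2 (polymerases and primase), RPA2, FEN1 and LIG1 (strand handling), RRM1, RRM2, TYMS and TK1 (nucleotide supply), E2F1 and CLSPN (control and checkpoint), and CHAF1A, CHAF1B and SLBP (chromatin and histones). They were chosen by symbol from the 52402 gene symbols of the count files, and all 41 were among the 14884 genes that passed the filter on low counts. The study transfected BEAS2B cells, a human bronchial epithelial line labelled as normal and wild type, with Lipofectamine 2000 and measured mRNA by sequencing. The groups were miRcontrol (a scrambled miRNA), miR3124_mimic (a mimic of miR-3124-5p), miR200b_mimic (a mimic of miR-200b-3p), miR92b_inhibitor (an inhibitor of miR-92b) and the 3-miRNA mixed group, which received the 3 agents together. Each group had 2 libraries. Per the study's methods, each single agent and the scrambled control were used at 50 nM and the transfection time was 48 h, whereas the amount of each agent in the mixed group was not given in the sources used here. The comparison asks what miRNAs measured in exosomes of small cell lung cancer do to the transcripts of a lung cell line.

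A replication origin is licensed when the origin recognition complex, with CDC6 and CDT1, loads the ring of MCM2 to MCM7 onto DNA, and it fires when CDC45 and the GINS complex turn that ring into an active helicase. Primase and the DNA polymerases then copy both strands, held by the PCNA clamp, while FEN1 and LIG1 process and seal the fragments of the lagging strand. Many of these genes are targets of E2F transcription factors, which the retinoblastoma protein restrains until late G1. BEAS2B cells were immortalised with a virus that carries the SV40 large T antigen, a protein that binds the retinoblastoma protein, so that this restraint is weakened in the line.

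The mature sequences of the miRNAs are printed here because the agents act through them. They were taken from RefSeq (GRCh38.p14), with the seed, bases 2 to 8, in capitals. Both arms of miR-92b are shown, since the labels name miR-92b without an arm. No seed is shared between them.
hsa-miR-3124-5p: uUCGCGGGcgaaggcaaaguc
hsa-miR-200b-3p: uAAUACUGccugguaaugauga
hsa-miR-92b-5p: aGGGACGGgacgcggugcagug
hsa-miR-92b-3p: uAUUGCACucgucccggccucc

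The libraries held 13587666 to 18503890 counts, and the counts of a member in a library ranged from 232 (POLE2 in the first miR200b_mimic library) to 8739 (RRM2 in the first miRcontrol library). The members took 0.493% and 0.499% of all counts in the miRcontrol libraries, 0.389% and 0.393% with miR3124_mimic, 0.418% and 0.411% with miR200b_mimic, 0.476% and 0.477% with miR92b_inhibitor and 0.408% and 0.402% in the mixed group. Of the epithelial markers, KRT7, KRT8 and KRT18 had at least 10684 counts in every library, whereas the basal markers KRT5 and TP63 had at most 9. The 8 epithelial markers summed to 2220.2 to 2268 CPM (normalized counts, scaled to library size) in miRcontrol, 2774 to 2781 with miR3124_mimic, 4188 to 4270.3 with miR200b_mimic, 2098 to 2188 with miR92b_inhibitor and 4081 to 4109 in the mixed group. KRT19 had 8.47 and 7.94 CPM in miRcontrol, 0.615 and 0.905 with miR3124_mimic, and 13.8 and 15.1 with miR200b_mimic. It had 5.54 and 4.71 CPM with miR92b_inhibitor and 2.49 and 2.74 in the mixed group. With miR3124_mimic and in the mixed group KRT19 was thus lower, while the sum, mostly KRT7, KRT8 and KRT18, was higher. The mesenchymal markers VIM, FN1 and CDH2 summed to 7314 to 7334 CPM in miRcontrol, and to 4383 to 4507, 4580.5 to 4635, 6823 to 6969.9 and 4947 to 4968 in the same order of groups. VIM alone went from 3894 and 3707 CPM in miRcontrol to 827 and 799 with miR3124_mimic. FN1 had 3181 and 3347 CPM in miRcontrol and 3436 and 3330 with miR3124_mimic, where CDH2 went from 259 and 259 to 244 and 254. The lower sum with miR3124_mimic was thus mostly that of VIM. With miR200b_mimic FN1 had 1444 and 1369 CPM and VIM 2972 and 2992. CDH1 and EPCAM, adhesion proteins that define epithelium, were under 0.5 CPM in all libraries of miRcontrol, miR3124_mimic and miR92b_inhibitor. With miR200b_mimic CDH1 had 10.9 and 9.03 CPM and EPCAM 10.2 and 10.1, and in the mixed group CDH1 had 2.54 and 1.94 and EPCAM 5.70 and 5.27. The part of these marker changes in the values of the replication genes was not tested. The leukocyte and endothelial markers PTPRC, CD3E and PECAM1 had at most 4 counts in any library, CD68 had 231 to 743, and the neuroendocrine markers CHGA and INSM1 had 0. In these bulk samples, fewer cells in S phase and less RNA per cell cannot be told apart.

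Against miRcontrol, most members were lower with miR3124_mimic, with miR200b_mimic and in the mixed group, while with miR92b_inhibitor 21 of the 41 were not called. The threshold for a call was an adjusted p under 0.05, from quasi-likelihood F tests in edgeR adjusted by Benjamini-Hochberg over all 14884 genes. In miR3124_mimic, 34 of the 41 were lower and 3 higher, where 25.3% of all genes tested were lower and 25.7% higher. Without miRcontrol replicate 2, 1 was higher, RPA2. In miR200b_mimic, 27 were lower and 2 higher, beside 19.1% and 21.4% of all genes. Without miRcontrol replicate 1 or miR200b_mimic replicate 1, 1 was higher. In miR92b_inhibitor, 14 were lower and 6 higher, beside 18.2% and 17.5%. In the 3-miRNA mixed group, 29 were lower and 0 higher, beside 21.1% and 21.5%. The count of 0 higher was also 0 at an unadjusted p under 0.05 in edgeR and 0 in the DESeq2 Wald test, and the largest positive log2 fold change was that of PRIM2, 0.09. The median log2 fold change of the members was -0.37 with miR3124_mimic, -0.20 with miR200b_mimic, -0.05 with miR92b_inhibitor and -0.26 in the mixed group, and that of all genes tested lay between -0.01 and 0.00 in each. All 4 comparisons share the miRcontrol libraries.

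With the study's criterion, a fold change of at least 2 and an unadjusted p under 0.05 in edgeR, 1 member passed in miR3124_mimic, RRM2, beside 8.81% of all genes. Of the members, 0 passed in miR200b_mimic, miR92b_inhibitor and the mixed group, beside 5.7%, 2.63% and 5.42% of all genes, and DESeq2 also gave 0 in these 3 groups. Every other fold against miRcontrol was under 2, the next largest being that of LIG1 with miR3124_mimic, 1.95-fold lower.

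**Figure D1:**
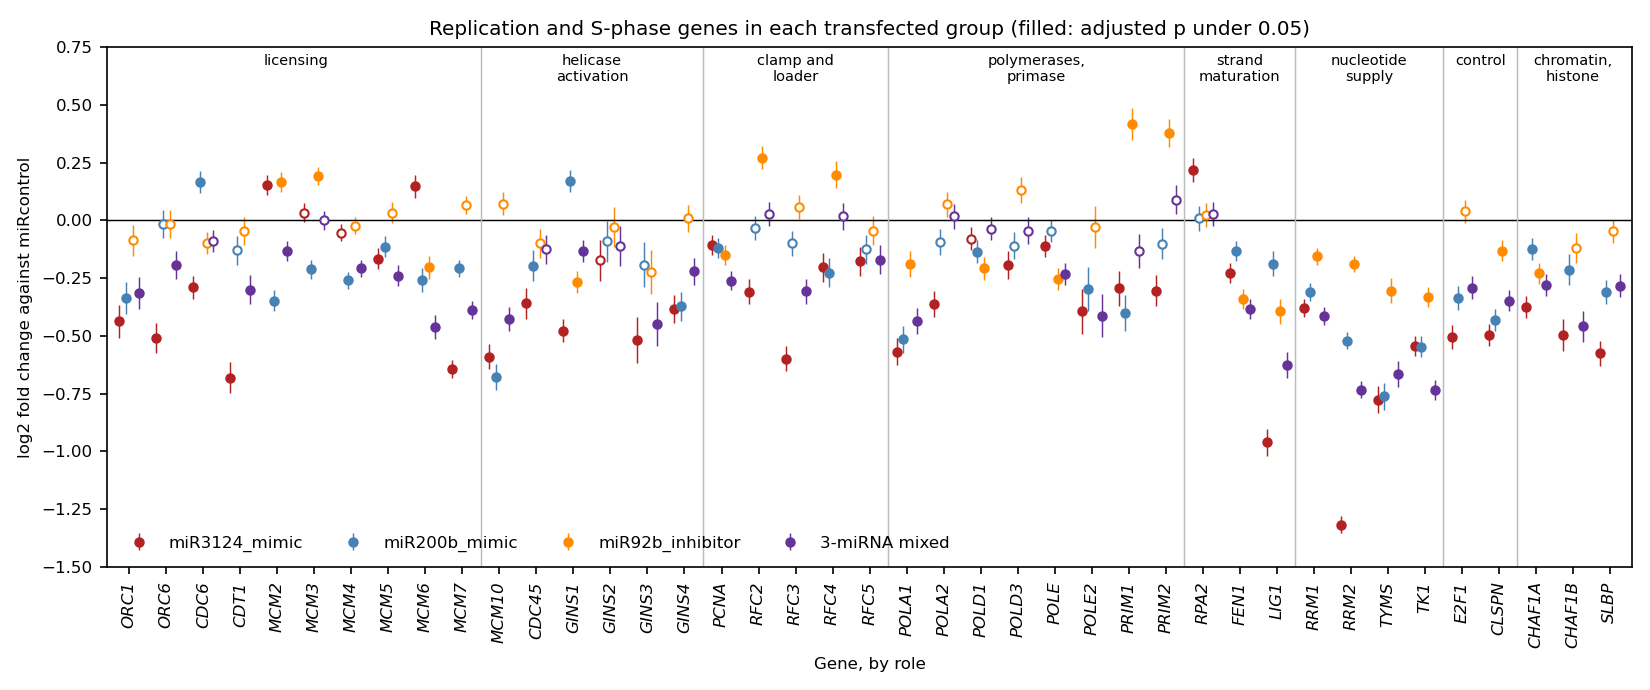
Log2 fold change of each of the 41 genes against miRcontrol (y axis) by gene and role (x axis) in the 4 transfected groups, from edgeR with all 10 libraries. Vertical bars are standard errors, and filled points have an adjusted p under 0.05. RRM2 and LIG1 with miR3124_mimic lie lowest, at -1.32 and -0.96, the nucleotide supply genes are below 0 in every group, and the highest points are PRIM1 and PRIM2 with miR92b_inhibitor, at 0.42 and 0.38.

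The genes fell into a few patterns over the 4 comparisons. The patterns were counted for the members only, and the share of all genes with each pattern was not computed. In single comparisons, 18.2% to 25.3% of all genes were lower and 17.5% to 25.7% higher. PCNA, POLA1, FEN1, LIG1, RRM1, RRM2, TYMS, TK1, CLSPN and CHAF1A, 10 in all, were lower in every transfected group. Without miRcontrol replicate 1, 6 of these 10 were still lower in every group, with calls lost for PCNA, POLA1, CLSPN and CHAF1A, and with any other library left out 7 to 10 of them were. The 10 genes ORC1, MCM5, MCM7, MCM10, GINS4, POLE, POLE2, E2F1, CHAF1B and SLBP were lower in 3 groups and not called in the remaining group, which was miR92b_inhibitor for all of them but POLE, which was not called in miR200b_mimic. The 10 genes CDC6, MCM2, MCM3, MCM6, GINS1, RFC2, RFC4, PRIM1, PRIM2 and RPA2 were higher in at least 1 group, and 9 of them, all but RPA2, were also lower in another. The rises of MCM3, RFC2, PRIM1, PRIM2 and RPA2 kept their calls whichever library was left out. Each rise of CDC6, MCM2, MCM6, GINS1 and RFC4 lost its call without at least 1 of the libraries, as given for each gene below. GINS2, a subunit of the GINS complex, was called in no group.

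Nucleotide supply was the role in which all members were lower in all transfected groups. Of all genes, 25.3%, 19.1%, 18.2% and 21.1% were lower with miR3124_mimic, miR200b_mimic, miR92b_inhibitor and the mixed group, each taken alone. RRM1 and RRM2 are the large and small subunits of ribonucleotide reductase, which makes deoxyribonucleotides, TYMS makes thymidylate, and TK1 salvages thymidine in S phase. RRM2 (chr2:10120698-10131419, plus strand, GENCODE v29 on GRCh38) had 500.2 and 503 CPM in the miRcontrol libraries, 206 and 197 with miR3124_mimic, 361 and 339 with miR200b_mimic, 436 and 443 with miR92b_inhibitor, and 302 and 301 in the mixed group. Every transfected library was below both control libraries, and the pairs of the groups did not overlap. In miR3124_mimic RRM2 was 59.9% lower, with a log2 fold change of -1.32 (SE 0.0386, adjusted p = 4.35e-31), and it fell by 0.73 in the mixed group, by 0.52 with miR200b_mimic and by 0.19 with miR92b_inhibitor on the log2 scale.

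TYMS (chr18:657604-673578, plus strand) stood at 82.1 and 80.8 CPM in miRcontrol, 47.9 and 47.2 with miR3124_mimic, 44.9 and 50.7 with miR200b_mimic, 67.6 and 64.4 with miR92b_inhibitor, and 52.2 and 50.6 in the mixed group. The range of miR200b_mimic overlapped those of miR3124_mimic and the mixed group, and all libraries of those groups and of the mixed group were below those of miR92b_inhibitor. TYMS was 41.7% lower in miR3124_mimic (log2 fold change -0.78, adjusted p = 1.02e-15) and 41.0% lower in miR200b_mimic (-0.76, adjusted p = 4.74e-15), where it had the largest change of any member, and it was 36.9% and 19.0% lower in the mixed group and miR92b_inhibitor.

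TK1 (chr17:78174075-78187233, minus strand) had 219 and 236 CPM in miRcontrol, 153 and 159 with miR3124_mimic, 159 and 152 with miR200b_mimic, 184 and 177 with miR92b_inhibitor, and 141 and 132 in the mixed group. Its lowest libraries were those of the mixed group. There TK1 was 40.0% lower (log2 fold change -0.74, SE 0.0437, adjusted p = 3.87e-19), the largest change of a member in that group. RRM1 went from 343 ± 4.63 CPM (SD, n = 2 libraries) in miRcontrol to 264 ± 5.27 with miR3124_mimic, 277 ± 7.06 with miR200b_mimic, 308 ± 10.4 with miR92b_inhibitor and 258 ± 5.16 in the mixed group, and all 4 differences were called.

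**Figure D2:**
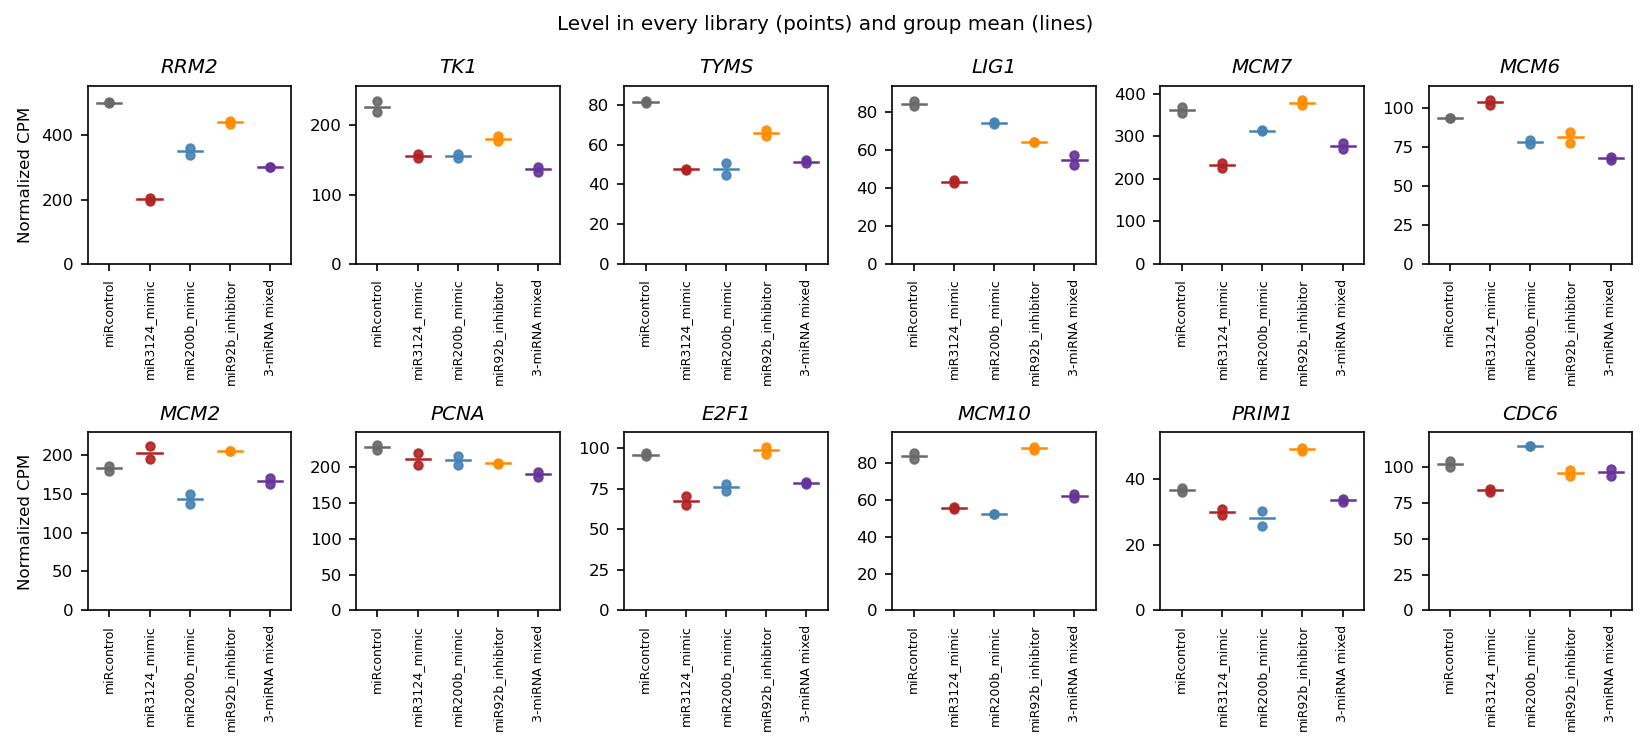
Normalized CPM (y axes, from 0) of 12 genes in each of the 10 libraries (points), by group (x axis), with lines at the group means. RRM2 is lowest in miR3124_mimic, at 206 and 197 CPM, TK1 in the mixed group, at 141 and 132, and PRIM1 is highest in miR92b_inhibitor, at 48.4 and 49.5.

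The genes that finish the lagging strand followed, while RPA2, a subunit of the protein that coats unwound DNA, did not. LIG1, the ligase that seals the fragments (chr19:48115445-48170603, minus strand), had 83.0 and 85.5 CPM in miRcontrol, 42.4 and 44.0 with miR3124_mimic, 74.4 and 73.6 with miR200b_mimic, 64.1 and 64.1 with miR92b_inhibitor, and 57.0 and 52.1 in the mixed group. Its groups did not overlap. The log2 fold change of LIG1 was -0.96 with miR3124_mimic (adjusted p = 3.75e-19), -0.63 in the mixed group (2.04e-13), -0.39 with miR92b_inhibitor (7.95e-08) and -0.19 with miR200b_mimic (0.00411).

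FEN1, the nuclease that trims the flaps ahead of ligation, stood at 162 and 168 CPM in miRcontrol, 144 and 138 with miR3124_mimic, 152 and 149 with miR200b_mimic, 133 and 127 with miR92b_inhibitor, and 123 and 129.9 in the mixed group. It was among the genes with the largest change in miR92b_inhibitor (21.1% lower, log2 fold change -0.34, adjusted p = 1.63e-08) and was 23.3% lower in the mixed group, 14.7% in miR3124_mimic and 8.76% in miR200b_mimic. The miR200b_mimic call was lost without the second library of either group, at adjusted p = 0.0955 without miR200b_mimic replicate 2 and 0.131 without miRcontrol replicate 2. RPA2 had 73.4 and 76.5 CPM in miRcontrol and 87.3 and 87.2 with miR3124_mimic, 16.4% higher (log2 fold change 0.22, adjusted p = 0.000391), and in the other 3 groups its libraries overlapped those of miRcontrol.

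Among the licensing genes the direction depended on the gene and the group. MCM2 to MCM7 form a ring of 6 subunits, each encoded by its own gene. Per kb of transcript, MCM7 had the highest level of the 6 in miRcontrol, 117 ± 3.05 CPM per kb (SD, n = 2 libraries), followed by MCM4 at 81.9 ± 2.20, MCM3 at 72.5 ± 0.236, MCM2 at 50.4 ± 1.34, MCM5 at 36.2 ± 0.402 and MCM6 at 25.0 ± 0.0330. Neighbours in that order did not overlap between libraries. In miR3124_mimic, MCM7 was at 75.2 ± 2.98 CPM per kb, below MCM4 at 78.9 ± 1.44, with a highest MCM7 library of 77.3 and a lowest MCM4 library of 77.9. The length used was that of the longest annotated protein-coding transcript of each gene. Which transcripts were expressed was not known, so the order of the genes is uncertain, above all that of MCM7 and MCM4 in miR3124_mimic.

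**Figure D3:**
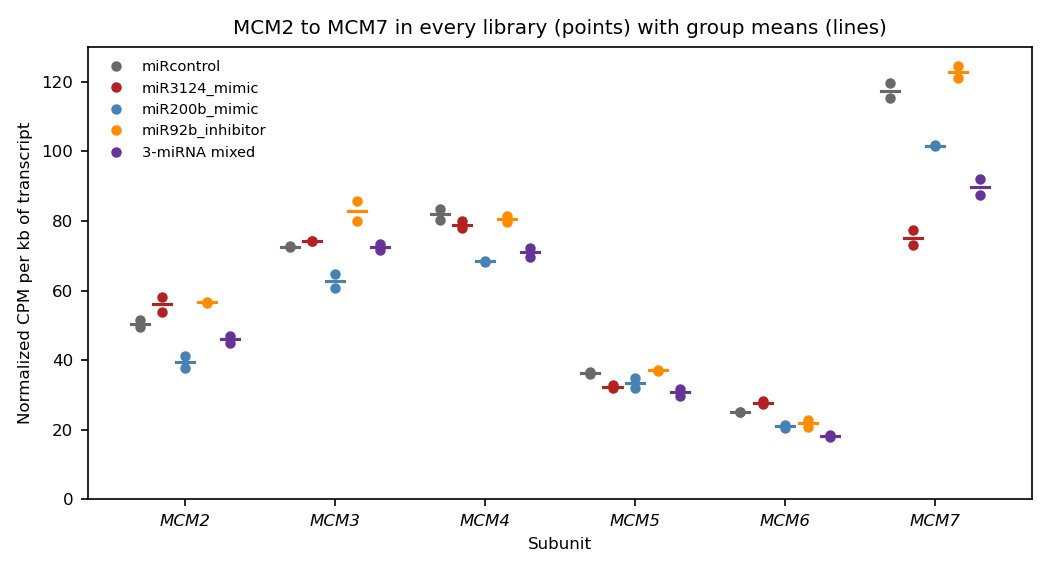
Normalized CPM per kb of transcript (y axis) of the 6 subunits of the MCM ring (x axis) in each of the 10 libraries (points), with lines at the group means. MCM7 falls from a mean of 117 in miRcontrol to 75.2 with miR3124_mimic while MCM6 goes from 25.0 to 27.8, and MCM6 is lowest in the mixed group, at 18.2.

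MCM2 (chr3:127598223-127622436, plus strand) had 186 and 179 CPM in miRcontrol, 195 and 211 with miR3124_mimic, 137 and 149.6 with miR200b_mimic, 205 and 205 with miR92b_inhibitor, and 170.3 and 163 in the mixed group. It was thus above the control libraries in miR3124_mimic and miR92b_inhibitor and below them in miR200b_mimic and the mixed group. The log2 fold change was 0.15 with miR3124_mimic (adjusted p = 0.00333), 0.17 with miR92b_inhibitor (0.00221), -0.35 with miR200b_mimic (1.48e-08) and -0.13 in the mixed group (0.0120). Only the fall in miR200b_mimic kept its call whichever library was left out. Without miRcontrol replicate 2 the adjusted p in miR3124_mimic was 0.0601 and in miR92b_inhibitor 0.0553, without miR3124_mimic replicate 2 it was 0.170, and in the mixed group it was 0.136 without miRcontrol replicate 1 and 0.147 without the second mixed library.

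MCM6 (chr2:135839626-135876426, minus strand) had 93.6 and 93.5 CPM in miRcontrol, 105 and 102 with miR3124_mimic, 76.8 and 79.5 with miR200b_mimic, 85.0 and 77.6 with miR92b_inhibitor, and 68.8 and 66.9 in the mixed group. The miR3124_mimic libraries were the highest and those of the mixed group the lowest of all 10. It was 27.5% lower in the mixed group (log2 fold change -0.46, adjusted p = 2.43e-10) and 10.8% higher in miR3124_mimic (0.15, adjusted p = 0.0113). The rise was not called by DESeq2 (adjusted p = 0.0542), nor without miR3124_mimic replicate 1 (0.0881) or miRcontrol replicate 2 (0.0517). The fall in miR92b_inhibitor (-0.20, adjusted p = 0.00121) was not called without miR92b_inhibitor replicate 2 (0.0925).

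MCM7 (chr7:100092728-100101940, minus strand) had 356 and 369 CPM in miRcontrol, 238 and 225 with miR3124_mimic, 314 and 313 with miR200b_mimic, 385 and 374 with miR92b_inhibitor, and 284 and 269.9 in the mixed group. Its libraries were lowest in miR3124_mimic, 36.0% below miRcontrol (log2 fold change -0.64, SE 0.0391, adjusted p = 4.74e-19). MCM3 was higher in miR92b_inhibitor (0.19, adjusted p = 0.000134) and lower in miR200b_mimic (-0.21), and MCM4 was lower in miR200b_mimic (-0.26) and the mixed group (-0.21). MCM5 was lower in miR3124_mimic (-0.17), in the mixed group (-0.24) and, with an adjusted p of 0.0480, in miR200b_mimic (-0.11). That last call was lost in DESeq2 (0.125), with TMM normalization (0.0638), with no filter on low counts (0.0967) and with only the 2 groups fitted (0.0635). It was also lost without miR200b_mimic replicate 1 or either miRcontrol library.

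CDT1, which brings the MCM ring to the origin, was among the genes with the largest fall in miR3124_mimic. It had 56.5 and 54.3 CPM in miRcontrol and 32.7 and 36.2 with miR3124_mimic, a log2 fold change of -0.68 (SE 0.0665, adjusted p = 3.15e-12), and 44.6 and 45.3 in the mixed group (-0.30, adjusted p = 8.46e-05). The other libraries held 48.3 and 52.5 CPM with miR200b_mimic and 53.6 and 53.6 with miR92b_inhibitor, all below both controls. It was not called in miR200b_mimic (-0.13, adjusted p = 0.0947) or miR92b_inhibitor (-0.05, 0.604). ORC1 and ORC6, subunits of the origin recognition complex, fell by 0.44 and 0.51 with miR3124_mimic and by 0.31 and 0.20 in the mixed group, and ORC1 also fell by 0.34 with miR200b_mimic. The fall of ORC6 in the mixed group was not called without miRcontrol replicate 1 (adjusted p = 0.0633) or the first mixed library (0.0629).

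CDC6, the loader that works with CDT1, took the opposite direction in the 2 mimic groups. It had 101 and 105 CPM in miRcontrol, 82.8 and 84.8 with miR3124_mimic (-0.29, adjusted p = 2.28e-06) and 115 and 115 with miR200b_mimic (0.16, adjusted p = 0.00459). The rise in miR200b_mimic was not called without miRcontrol replicate 1 (adjusted p = 0.0720).

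Of the 6 genes of helicase activation, 5 were lower with miR3124_mimic, 3 with miR200b_mimic, 1 with miR92b_inhibitor and 4 in the mixed group, where 25.3%, 19.1%, 18.2% and 21.1% of all genes were lower. The 1 of 6 is near the share of all genes. CDC45, which joins the MCM ring and GINS in the active helicase, had 47.1 and 44.5 CPM in miRcontrol, 35.6 and 35.8 with miR3124_mimic, 40.1 and 39.9 with miR200b_mimic, 41.9 and 43.6 with miR92b_inhibitor, and 42.2 and 41.8 in the mixed group. All transfected libraries were below both controls, and CDC45 was called in miR3124_mimic (-0.36, adjusted p = 1.09e-05) and in miR200b_mimic (-0.20, 0.0145), the latter not in DESeq2 (0.0757) and not without miRcontrol replicate 1 (0.151) or miR200b_mimic replicate 2 (0.0732).

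MCM10, which helps to switch the helicase on, had 85.3 and 82.1 CPM in miRcontrol, 56.2 and 55.1 with miR3124_mimic, 52.2 and 52.5 with miR200b_mimic, 87.3 and 88.7 with miR92b_inhibitor, and 61.1 and 63.3 in the mixed group. The log2 fold change was -0.68 with miR200b_mimic (SE 0.0552, adjusted p = 2.14e-14), -0.59 with miR3124_mimic, -0.43 in the mixed group and 0.07 with miR92b_inhibitor (adjusted p = 0.284). GINS1 had 108 and 111 CPM in miRcontrol, 79.1 and 78.8 with miR3124_mimic, 127 and 121 with miR200b_mimic, 90.6 and 92.2 with miR92b_inhibitor, and 96.8 and 103 in the mixed group. It rose in miR200b_mimic (0.17, adjusted p = 0.00288, and 0.0548 without miR200b_mimic replicate 1) and fell in the other 3 groups, by 0.48, 0.27 and 0.13, the last not called by DESeq2 (0.0663) and not without miRcontrol replicate 2 (0.129) or the first mixed library (0.242). GINS3 fell by 0.52 with miR3124_mimic and by 0.45 in the mixed group, and GINS4 fell by 0.38, 0.37 and 0.22 with miR3124_mimic, miR200b_mimic and the mixed group.

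PCNA, the clamp that holds the polymerases on DNA, fell by 0.11 to 0.26 on the log2 scale over the transfected groups. It had 230.4 and 224 CPM in miRcontrol, 202 and 219.6 with miR3124_mimic, 216 and 203 with miR200b_mimic, 206 and 204 with miR92b_inhibitor, and 193 and 186 in the mixed group. All transfected libraries were below both controls, with log2 fold changes of -0.11 with miR3124_mimic (adjusted p = 0.0310), -0.12 with miR200b_mimic (0.0188), -0.15 with miR92b_inhibitor (0.00380) and -0.26 in the mixed group (1.18e-06). The fall in the mixed group was called whichever library was left out. In miR3124_mimic the adjusted p was 0.0728 in DESeq2, 0.102 with library totals only and 0.0570 with at least 10 counts in every library. That call was also lost without miR3124_mimic replicate 1 or miRcontrol replicate 1. The call in miR200b_mimic was lost without miR200b_mimic replicate 2 or miRcontrol replicate 1, and that in miR92b_inhibitor without miRcontrol replicate 1.

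The subunits of replication factor C, which loads the clamp, did not move together. RFC3 fell by 0.60 with miR3124_mimic and by 0.31 in the mixed group. RFC2 fell by 0.31 with miR3124_mimic and rose by 0.27 with miR92b_inhibitor, and RFC4 fell by 0.20 with miR3124_mimic and by 0.23 with miR200b_mimic and rose by 0.20 with miR92b_inhibitor. RFC5 fell by 0.18 and 0.17 with miR3124_mimic and the mixed group, and DESeq2 called neither (adjusted p = 0.0824 and 0.103). Without miRcontrol replicate 1 these adjusted p were 0.317 and 0.372, without miR3124_mimic replicate 1 the former was 0.183, and without the first mixed library the latter was 0.279. The RFC4 call with miR3124_mimic was lost without miR3124_mimic replicate 1 (0.0602) or miRcontrol replicate 2 (0.0572), and that with miR92b_inhibitor without miR92b_inhibitor replicate 2 (0.0858) or miRcontrol replicate 1 (0.0812).

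POLA1, the catalytic subunit of polymerase alpha, which extends the primers, had 77.3 and 75.2 CPM in miRcontrol, 52.9 and 50.1 with miR3124_mimic, 56.8 and 50.4 with miR200b_mimic, 66.5 and 67.1 with miR92b_inhibitor, and 55.4 and 57.4 in the mixed group. All transfected libraries were below both controls, and those of miR3124_mimic, miR200b_mimic and the mixed group overlapped in part. The log2 fold change was -0.57, -0.52, -0.19 and -0.44 with miR3124_mimic, miR200b_mimic, miR92b_inhibitor and the mixed group, the third of which was not called without miRcontrol replicate 1 (adjusted p = 0.0606). POLA2, its partner subunit, fell by 0.36 with miR3124_mimic.

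PRIM1 and PRIM2 form the primase, which writes the RNA primers, and both rose in miR92b_inhibitor. PRIM1 had 36.1 and 37.4 CPM in miRcontrol, 30.9 and 29.1 with miR3124_mimic, 30.3 and 25.7 with miR200b_mimic, 48.4 and 49.5 with miR92b_inhibitor, and 33.0 and 34.0 in the mixed group. It was 33.4% higher in miR92b_inhibitor (log2 fold change 0.42, SE 0.0698, adjusted p = 4.65e-06), the largest change of a member there, and lower in miR3124_mimic (-0.29) and miR200b_mimic (-0.40). PRIM2 had 67.3 and 59.1 CPM in miRcontrol and 88.3 and 76.1 with miR92b_inhibitor (0.38, adjusted p = 2.95e-06), and it was lower in miR3124_mimic (-0.31, adjusted p = 0.000141). PRIM2 stood at 52.7 and 49.8 CPM with miR3124_mimic, at 59.7 and 58.2 with miR200b_mimic and at 64.8 and 69.7 in the mixed group. The latter 2 groups overlapped the controls and were not called. The replicates of PRIM2 were far apart, and the ranges of miR3124_mimic and miR92b_inhibitor still did not overlap that of miRcontrol.

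Polymerase delta and polymerase epsilon copy the lagging and the leading strand. POLE, the catalytic subunit of epsilon, fell by 0.26 with miR92b_inhibitor, by 0.23 in the mixed group and by 0.11 with miR3124_mimic (adjusted p = 0.0429). That last call was lost in DESeq2 (0.120), with library totals only (0.132), with at least 10 counts in every library (0.0744) and with no filter (0.0551). It was also lost without miR3124_mimic replicate 1 or either miRcontrol library. POLE2 fell by 0.39, 0.30 and 0.41 with miR3124_mimic, miR200b_mimic and the mixed group. The POLE2 call with miR200b_mimic was lost in DESeq2 (0.0667) and without miR200b_mimic replicate 2 (0.0601) or miRcontrol replicate 2 (0.151). POLD1, the catalytic subunit of delta, fell by 0.21 with miR92b_inhibitor and by 0.14 with miR200b_mimic. The second of these was called neither by DESeq2 (adjusted p = 0.101) nor with no filter on low counts (0.0813). It was also not called with any 1 library of its groups left out. POLD3 fell by 0.19 with miR3124_mimic, a call lost without miR3124_mimic replicate 2 (0.142) or miRcontrol replicate 2 (0.0549).

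E2F1, the transcription factor, had 95.2 and 97.2 CPM in miRcontrol, 64.9 and 70.3 with miR3124_mimic, 74.0 and 78.1 with miR200b_mimic, 96.5 and 101 with miR92b_inhibitor, and 79.0 and 78.2 in the mixed group. The control libraries lay within or below the range of miR92b_inhibitor and above all others. E2F1 fell by 0.51 with miR3124_mimic (adjusted p = 2.11e-11), by 0.34 with miR200b_mimic and by 0.29 in the mixed group, and was not called in miR92b_inhibitor (0.04, adjusted p = 0.580). CLSPN, the checkpoint mediator that travels with the fork, fell by 0.50, 0.43, 0.13 and 0.35 with miR3124_mimic, miR200b_mimic, miR92b_inhibitor and the mixed group. With miR92b_inhibitor, CLSPN was not called by DESeq2 (adjusted p = 0.0571) or without miR92b_inhibitor replicate 2 (0.128) or miRcontrol replicate 1 (0.222).

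CHAF1A, the large subunit of chromatin assembly factor 1, which places histones behind the fork, had 114 and 117 CPM in miRcontrol, 87.7 and 90.4 with miR3124_mimic, 106 and 106 with miR200b_mimic, 95.4 and 101 with miR92b_inhibitor, and 95.9 and 94.4 in the mixed group. All transfected libraries were below both controls. It fell by 0.37 with miR3124_mimic, by 0.23 with miR92b_inhibitor, by 0.28 in the mixed group and by 0.12 with miR200b_mimic. For CHAF1A in miR200b_mimic the adjusted p was 0.0320 with all libraries, 0.101 in DESeq2 and 0.0774 with no filter on low counts. That call was also lost with any 1 library of its groups left out. Its partner CHAF1B fell by 0.50, 0.21 and 0.46 with miR3124_mimic, miR200b_mimic and the mixed group, and SLBP, which binds histone mRNA, fell by 0.58, 0.31 and 0.28 in the same groups.

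The 3-miRNA mixed group was compared directly with each single agent. Against miR3124_mimic, 19 members were higher and 8 lower in the mixed group, beside 25.3% and 23.8% of all genes, with a median log2 difference of 0.13. Against miR200b_mimic, 6 were higher and 18 lower, beside 18.2% and 20.4%, with a median of -0.02. With 1 library left out, 12 to 14 were lower (12 without the second mixed library) and the median ranged from -0.081 to 0.018, and it was 0.0063 with library totals only. The sign of the median thus changed between these settings. Against miR92b_inhibitor, 2 were higher and 29 lower, beside 19.7% and 19.9%, with a median of -0.23. With 1 library left out, 0 to 2 were higher (0 without the second mixed library). These comparisons share the mixed libraries.

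RRM2 in the mixed group lay between the single agents: it was 0.58 higher than in miR3124_mimic on the log2 scale (adjusted p = 2.86e-17), 0.21 lower than in miR200b_mimic (9.3e-06) and 0.54 lower than in miR92b_inhibitor (6.39e-17). LIG1 likewise was 0.33 higher than in miR3124_mimic and 0.44 and 0.23 lower than in the other two. MCM6 and TK1 were lower in the mixed group than in each single agent, with log2 differences of -0.61, -0.21 and -0.26 for MCM6 and of -0.19, -0.19 and -0.40 for TK1 against miR3124_mimic, miR200b_mimic and miR92b_inhibitor. PCNA was also lower than in each (-0.15, -0.14 and -0.11), but each of these calls was lost when a library was left out, to adjusted p = 0.168 without miR3124_mimic replicate 2, 0.124 without miR200b_mimic replicate 1 and 0.206 without the second mixed library.

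MCM2 in the mixed group was 0.29 lower than in miR3124_mimic, 0.30 lower than in miR92b_inhibitor and 0.22 higher than in miR200b_mimic. PRIM1 was 0.55 lower than in miR92b_inhibitor (adjusted p = 9.08e-09). It was 0.27 higher than in miR200b_mimic, where the adjusted p was 0.271 without miR200b_mimic replicate 2. The genes higher than in miR92b_inhibitor were GINS1 (0.13, adjusted p = 0.0269) and POLD1 (0.17, 0.00487). Neither was called without the second mixed library. GINS1 was also not called by DESeq2 (0.0894), with no filter on low counts (0.0534) or without either miR92b_inhibitor library.

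**Figure D4:**
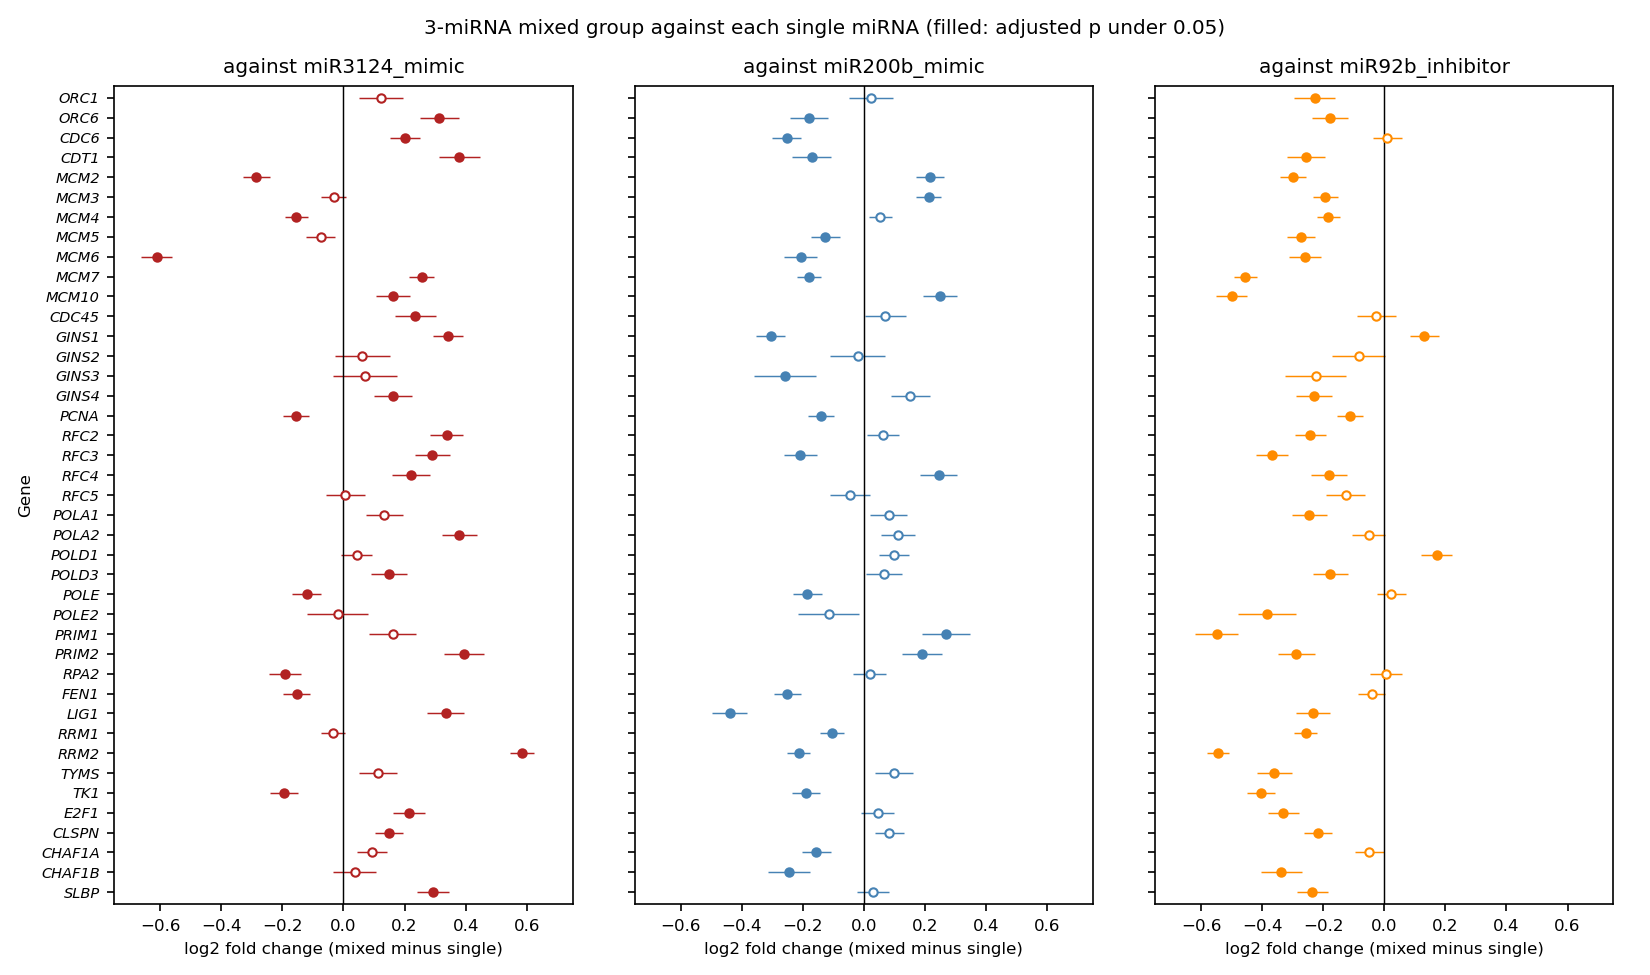
Log2 difference of each of the 41 genes between the 3-miRNA mixed group and each single agent (x axes, mixed minus single), by gene (y axis). Horizontal bars are standard errors and filled points have an adjusted p under 0.05. Against miR3124_mimic, RRM2 lies farthest to the right (0.58) and MCM6 farthest to the left (-0.61), and against miR92b_inhibitor 29 of the 41 genes are lower.

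Other genes of the pathway were read in lists of related function. Of 41 further replication genes, 25 were lower in miR3124_mimic, 18 with miR200b_mimic, 12 with miR92b_inhibitor and 18 in the mixed group, and 6, 7, 8 and 7 were higher, with median log2 fold changes of -0.25, -0.13, -0.02 and -0.04. The shares lower, 61.0%, 43.9%, 29.3% and 43.9%, stand beside 25.3%, 19.1%, 18.2% and 21.1% of all genes, and the shares higher, 14.6%, 17.1%, 19.5% and 17.1%, were near or below the 25.7%, 21.4%, 17.5% and 21.5% of all genes. CHTF18, a subunit of an alternative clamp loader, fell by 1.38 with miR3124_mimic and by 0.57 in the mixed group, and TICRR, which is needed for origin firing, fell by 0.83 and 0.53. In miR200b_mimic, UHRF1, which keeps DNA methylation through replication, fell by 0.80, the nuclease DNA2 fell by 0.78 and POLD4, a small subunit of polymerase delta, rose by 0.73. ORC5 rose by 0.54 with miR92b_inhibitor, where the histone chaperone ASF1B fell by 0.50 and the helicase RECQL4 fell by 0.38. DONSON fell by 0.61 with miR3124_mimic and TOP2A, a topoisomerase, fell by 0.68 in the mixed group.

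The 30 genes of the RB-E2F axis, of which 28 were tested, included calls in both directions. Of these, 16, 10, 12 and 17 were lower and 10, 12, 5 and 4 higher in miR3124_mimic, miR200b_mimic, miR92b_inhibitor and the mixed group, with medians of -0.22, 0.06, -0.20 and -0.18. The shares lower were 57.1%, 35.7%, 42.9% and 60.7%, beside 25.3%, 19.1%, 18.2% and 21.1% of all genes. The shares higher were 35.7%, 42.9%, 17.9% and 14.3%, beside 25.7%, 21.4%, 17.5% and 21.5%, so that with miR92b_inhibitor the share higher was near that of all genes and in the mixed group below it. TFDP1, the partner with which E2F proteins bind DNA, had 249.6 and 247 CPM in miRcontrol and 93.6 and 93.0 with miR3124_mimic, a log2 fold change of -1.41 (adjusted p = 4.6e-30). RBL1, a pocket protein related to the retinoblastoma protein, had 146 and 141 CPM in miRcontrol, 40.5 and 38.3 with miR200b_mimic (-1.87) and 49.3 and 47.7 in the mixed group (-1.57). CDK6, a kinase that acts on the pocket proteins, rose by 1.27 with miR200b_mimic and by 1.45 in the mixed group. CCND2, its cyclin partner, had 2.2 and 1.9 CPM in miRcontrol and rose by 2.05, 1.49 and 2.24 with miR3124_mimic, miR200b_mimic and the mixed group, and E2F5, at under 1 CPM in miRcontrol, rose by 1.55 with miR3124_mimic. Among the genes called with miR92b_inhibitor, the largest changes were the falls of MYBL2 by 0.72 and of the inhibitors CDKN2C by 0.57 and CDKN2B by 0.54.

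The mitosis list, used to show a later phase of the cell cycle, had a larger share of its genes lower than the 41 replication and S-phase genes in each group. All 30 of its genes were lower in miR3124_mimic, miR200b_mimic and the mixed group, and 25 of 30 with miR92b_inhibitor, with medians of -0.57, -0.44, -0.27 and -0.60. The shares of all genes that were lower were 25.3%, 19.1%, 18.2% and 21.1% in miR3124_mimic, miR200b_mimic, miR92b_inhibitor and the mixed group. AURKA, CENPE and INCENP fell most in miR3124_mimic, by 1.29, 1.19 and 1.10. KIF11, PRC1 and KIF20A fell most in miR200b_mimic, by 0.93, 0.85 and 0.77, KIF20A, INCENP and ESPL1 with miR92b_inhibitor, by 0.62, 0.60 and 0.45, and KIF20A, INCENP and AURKA in the mixed group, by 1.13, 1.02 and 1.01. The part of the share of cycling cells in these values was not tested.

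**Figure D5:**
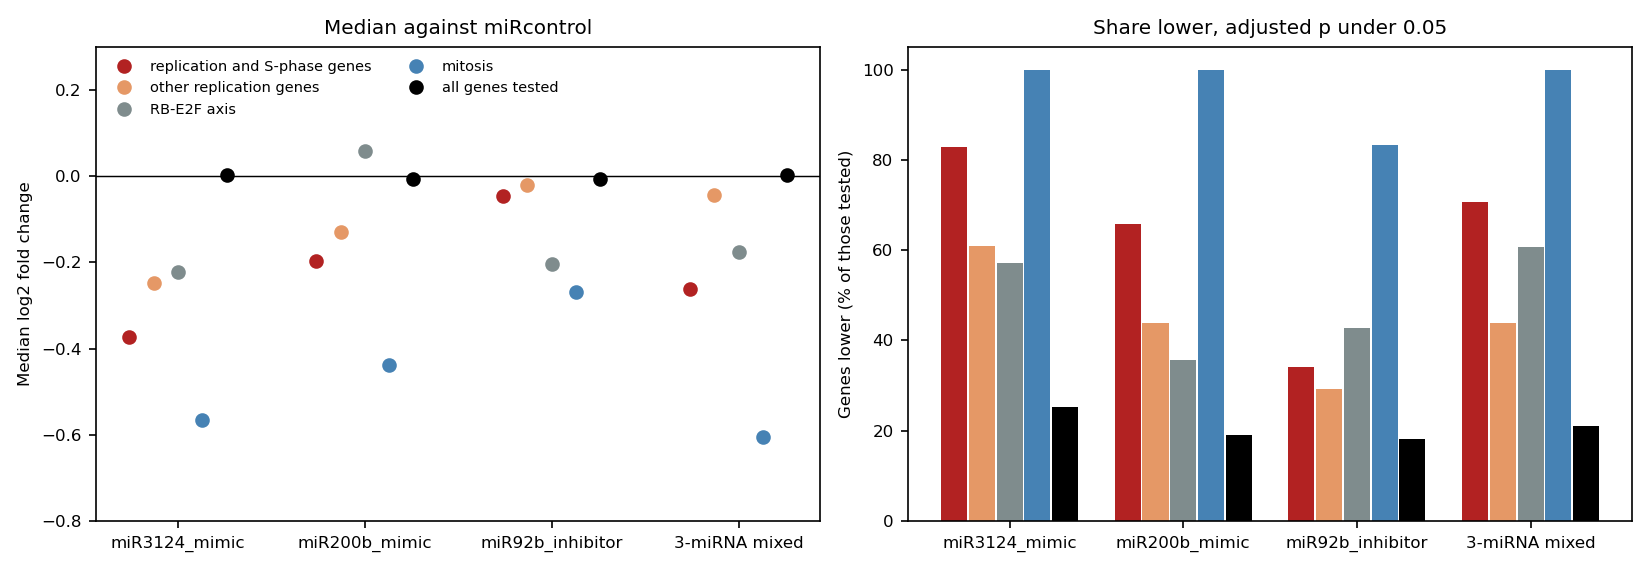
Left: median log2 fold change against miRcontrol (y axis) of 4 gene lists and of all genes tested, by transfected group (x axis). Right: share of each list that was lower at an adjusted p under 0.05 (y axis, %, from 0). The mitosis list is lowest in every group, with medians of -0.57, -0.44, -0.27 and -0.60, and all genes tested lie near 0.

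Promoters are printed for 4 genes with differing patterns, because many replication genes are known to carry E2F sites. For 36 of the 41 genes a promoter window was read from RefSeq (GRCh38.p14), from 250 bases before to 50 bases after the start, and the windows of MCM4, MCM5, GINS4, POLD3 and RPA2 were not analysed here. The words TTTCCCGC, TTTCGCGC, TTTGCCGC and TTTGGCGC were searched on both strands. At least 1 was in 19 of the 36 windows (52.8%), in 549 of 10434 windows of genes tested (5.26%) and in 908 of all 27305 windows (3.33%). The word CCAAT, searched on both strands, was in 55.6% of the members' windows, 36.4% of those of genes tested and 35.7% of all. MCM2, MCM3, MCM6, MCM7 and E2F1 held 2 or more of the E2F words, where overlapping matches on both strands, as in MCM2 and MCM6, counted separately. In the sequences, given 5′ to 3′ on the gene's strand, the E2F words are in capitals.
MCM2, chr3:127598161-127598460, plus strand: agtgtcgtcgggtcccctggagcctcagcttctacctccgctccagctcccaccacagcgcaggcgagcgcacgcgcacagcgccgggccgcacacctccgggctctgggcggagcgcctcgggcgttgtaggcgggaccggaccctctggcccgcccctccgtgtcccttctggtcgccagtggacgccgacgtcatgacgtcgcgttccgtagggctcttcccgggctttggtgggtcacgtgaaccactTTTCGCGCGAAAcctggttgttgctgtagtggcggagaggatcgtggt
MCM7, chr7:100101348-100101647, minus strand: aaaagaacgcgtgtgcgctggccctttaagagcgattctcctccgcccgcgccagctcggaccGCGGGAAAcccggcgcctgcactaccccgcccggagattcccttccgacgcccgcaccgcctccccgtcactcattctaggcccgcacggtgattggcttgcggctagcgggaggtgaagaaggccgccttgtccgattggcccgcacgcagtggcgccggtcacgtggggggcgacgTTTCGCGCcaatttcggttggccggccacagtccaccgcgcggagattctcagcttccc
TYMS, chr18:657403-657702, plus strand: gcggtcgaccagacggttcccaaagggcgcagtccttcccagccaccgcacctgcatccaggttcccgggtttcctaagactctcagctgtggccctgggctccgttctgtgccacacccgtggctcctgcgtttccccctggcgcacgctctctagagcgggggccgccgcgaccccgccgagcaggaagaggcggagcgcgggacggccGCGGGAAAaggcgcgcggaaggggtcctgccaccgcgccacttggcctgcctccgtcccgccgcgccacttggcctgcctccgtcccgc
E2F1, chr20:33686336-33686635, minus strand: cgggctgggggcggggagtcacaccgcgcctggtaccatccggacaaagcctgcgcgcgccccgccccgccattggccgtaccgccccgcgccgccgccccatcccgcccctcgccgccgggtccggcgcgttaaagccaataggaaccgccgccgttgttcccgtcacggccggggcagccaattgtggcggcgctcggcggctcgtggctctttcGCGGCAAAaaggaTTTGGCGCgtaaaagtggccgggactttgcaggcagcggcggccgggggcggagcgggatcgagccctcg

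The calls were also counted for genes with and without an E2F word in the window. In miR3124_mimic, 15 of the 19 with a word were lower and 2 higher, against 16 and 0 of the 17 without. In miR200b_mimic the counts were 11 lower and 2 higher against 13 and 0, in miR92b_inhibitor 8 lower and 2 higher against 6 and 4, and in the mixed group 15 lower and 0 higher against 11 and 0. Of all genes, 25.3%, 19.1%, 18.2% and 21.1% were lower and 25.7%, 21.4%, 17.5% and 21.5% higher, in the same order of groups. With miR92b_inhibitor both counts higher were near the share of all genes. Calls of other tested genes with a word were not counted. The median log2 fold changes were -0.48 and -0.37 with miR3124_mimic, -0.19 and -0.21 with miR200b_mimic, -0.10 and -0.09 with miR92b_inhibitor, and -0.30 and -0.28 in the mixed group, with and without a word. RRM2, which had the largest fall of all, and TK1 held none of these words in the window. Only the exact words were searched, so a window without one may hold an E2F site of another form. The windows of CDC45 and MCM10, counted as without a word, held TTTGGCGG, which differs from TTTGGCGC in its last base. That of CHAF1A, also counted as without a word, held TTTGGCGG on the other strand. These counts are descriptions of the windows and carry no test.

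The 3′UTRs of the members were searched for words that pair with the seeds. From GENCODE v29, the 3′UTR of each gene's longest protein-coding transcript was read for all 41 members, with a median length of 800 bases, and for 12221 genes tested, with a median of 1345. CCCGCGA, the match to the miR-3124-5p seed, was in 0 members and in 0.622% of the genes tested. CAGTATT, the match to miR-200b-3p, was in 5 members (12.2%) and in 19.5% of genes tested. CCGTCCC, for miR-92b-5p, was in 2 members (4.88%) and in 4.19%, and GTGCAAT, for miR-92b-3p, was in 2 members (4.88%) and in 13.1%. For miR-3124-5p and miR-92b-5p the members were near the share of the genes tested. The part of the shorter 3′UTRs in the lower shares for miR-200b-3p and miR-92b-3p was not tested.

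The sites of miR-200b-3p are shown with the bases around them, with the match in capitals, because their genes include some of the largest falls in miR200b_mimic.
MCM10, chr10:13210974-13210995, plus strand: cattgcagtCAGTATTcacgtg
RRM2, chr2:10131036-10131057, plus strand: aattgtattCAGTATTtgaacg
CHAF1B, chr21:36418545-36418566, plus strand: ggggaggaaCAGTATTaggttt
CHAF1B, chr21:36418869-36418890, plus strand: aaagaagaaCAGTATTaggttt
CDT1, chr16:88809200-88809221, plus strand: ccttgacttCAGTATTtctgac
RFC3, chr13:33836323-33836344, plus strand: tctcagtatCAGTATTtacata
In miR200b_mimic, MCM10, RRM2 and CHAF1B fell by 0.68, 0.52 and 0.21, while CDT1 (-0.13) and RFC3 (-0.10) were not called, and TYMS and TK1, which fell by 0.76 and 0.55, had no such word. CHAF1B was not called by DESeq2 (adjusted p = 0.0576) or without miRcontrol replicate 1 (0.0960) or miR200b_mimic replicate 2 (0.139). In miR92b_inhibitor, CDC45 and GINS3, with CCGTCCC, and CDC6, with GTGCAAT, were not called, and MCM6, with GTGCAAT, was lower (-0.20). A word in these letters is a description and not a measured site.

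Some members share bases with neighbours in the annotation. The setting of strand in the counting was not given in the sources used here, so that reads of a gene and of a partner on the opposite strand may not be told apart: TYMS shares 967 exonic bases with ENOSF1, MCM7 shares 392 with AP4M1, FEN1 shares 166 with TMEM258, and MCM2 shares 1113 with an antisense transcript. RRM2 and POLA2 share 1077 and 2012 exonic bases with another annotated gene on the same strand, POLD1 shares 426 and PRIM1 shares 362. On the opposite strand, GINS4 shares 1159 and GINS3 shares 558 with an antisense transcript. FEN1, PCNA, RFC3, RFC5, RPA2, RRM2 and TYMS have annotated pseudogenes named after them elsewhere in the genome. Reads could be split between a gene and these copies, so the levels of these genes are uncertain to that extent. Copies under other names were not searched for.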

How the data were processed

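Poly(A) RNA of 10 libraries, 2 per group, was made into directional libraries and sequenced. The authors trimmed the reads, mapped them with TopHat (GRCh38 per the labels) and deposited raw read counts per gene symbol, with no normalization. The counting tool, its strand setting and the annotation were not given in the sources used here. Of 58173 rows, 5771 repeated a symbol and were summed. Columns without a sample numbered 0.

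In R 4.3.3, edgeR 4.0.16 (with limma 3.58.1) was used: filterByExpr, RLE normalization, and glmQLFit and glmQLFTest over all 10 libraries with the group as the only term, then Benjamini-Hochberg adjustment over 14884 genes. A gene was called at an adjusted p under 0.05. Normalized CPM are counts scaled to the effective library size. Standard errors were taken as the log2 fold change divided by the square root of F and are approximate. A total of 7 comparisons were made. The script was tested on simulated data. Intervals other than the spread of 2 libraries are not given, and whether replicates were separate transfections was not stated, so p-values measure only the spread between these libraries, which may be technical. Replicates of a group differed by more than counting error (chi-square per degree of freedom 1.75 to 2.63).

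The members and lists were chosen with earlier results of these data known. Values of every library were given for the 4 members with the largest change among those called in each comparison with miRcontrol and for MCM2, CDC45, PCNA, POLA1, FEN1, RRM2, E2F1 and CHAF1A, and for other lists the 3 largest called changes. MCM6, MCM7, GINS1, MCM10 and RPA2 were shown in more detail after their values were seen. The genes in the promoter and site displays were likewise chosen with values known. Alternatives were TMM, library totals only, DESeq2 1.42.0, other filters, a fit of the 2 groups alone, a replicate block and leaving out each library.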

Additional observations from a re-analysis of the deposited data

How the results depend on the processing

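No called member turned its direction under any of the alternatives, and 254 of the 275 counts and medians recomputed stayed within their limits. In miR3124_mimic the median of the members was -0.35 with library totals only and -0.36 with at least 10 counts in every library. Between the mixed group and miR3124_mimic it was 0.15 with TMM, and between the mixed group and miR200b_mimic it was 0.0063 with library totals only, on the other side of 0. The mixed group had 1 member higher than miR92b_inhibitor with no filter and 1 with DESeq2, in place of 2. Of the 287 member values, DESeq2 lost the call of 27, and each other setting with all libraries lost at most 10. Whether the replicate numbers paired libraries across groups was not stated. For all 14884 genes, the correlations of the replicate differences from group to group ranged from -0.033 to 0.0446. Counting noise can mask a shared signal in such values, so they cannot decide whether libraries were paired. With a replicate block, the calls of all 287 stayed, with 34 members lower in miR3124_mimic.

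With 1 library left out, the members higher in miR3124_mimic numbered 1 to 3 (1 without miRcontrol replicate 2), in miR200b_mimic 1 to 2 (1 without miRcontrol replicate 1 or miR200b_mimic replicate 1), and in the mixed group against miR92b_inhibitor 0 to 2 (0 without the second mixed library, 1 without either miR92b_inhibitor library). Medians ranged from -0.21 to -0.18 in miR200b_mimic, -0.072 to -0.034 in miR92b_inhibitor, -0.29 to -0.25 in the mixed group, 0.12 to 0.16 for the mixed group against miR3124_mimic, -0.081 to 0.018 against miR200b_mimic (18 lower became 12 to 14) and -0.24 to -0.21 against miR92b_inhibitor. The 2 libraries per group limit all of these values.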
